A study of Mus musculus with 2 samples.

Results

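Mature B cells formed a small lymphocyte fraction of lamina propria cells that had been sorted against the pan-leukocyte protein CD45. They were chosen by their own RNA: a barcode was a member when it held at least 2000 UMIs (unique molecular identifiers, each 1 captured RNA molecule), at most 20% of them from mitochondrial genes, at least 1 UMI each of *Cd79a* and *Ms4a1*, under 20 UMIs of *Jchain*, none of *Pdgfra* or *Cd3e* and at most 1 of *Epcam*. Of 14437 barcodes that passed the depth and mitochondrial limits, 927 were members. The ApcMin library held 609 of them and the VApcMinL library 318. Because these genes chose the members, their levels are given below as a description and not as a finding.

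The study compared intestinal adenomas that can or cannot make Lef1, a transcription factor of the Wnt pathway. The single-cell data are 1 library of each genotype, from C57BL/6 mice of 11 weeks. Both groups carried the *Apc* Min/+ allele, which causes intestinal adenomas. ApcMin mice were *Lef1* +/+, and VApcMinL mice were *Lef1* fl/fl with Villin-Cre, a recombinase driven by an epithelial promoter, so the deletion was not directed at B cells. Live cells negative for Ter119, Epcam and CD45 were sorted and captured with the 10x Genomics 3' v3 kit. How many mice were pooled into a library is not given in the sources used here. With 1 library a genotype there is no replicate spread: no test was made, the intervals are exact and cover counting error only, and genotype, mouse and library cannot be told apart.

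A mature B cell carries membrane IgM and IgD with the signalling pair encoded by *Cd79a* and *Cd79b*. Its transcription factors Pax5 and Ebf1 maintain B cell identity, and it presents antigen on MHC class II. When it becomes a plasma cell it loses much of that programme and secretes antibody, in the gut mostly dimeric IgA held together by the joining chain encoded by *Jchain*. Naive follicular B cells recirculate between blood and lymphoid follicles, among them the Peyer's patches and isolated lymphoid follicles of the intestine.

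Short windows of promoter sequence show motifs of the kind that B cell transcription factors read, next to some genes of the marker and identity lists. Of the genes printed, the gate used *Cd79a* alone. The sequences are those of RefSeq on GRCm38.p6, in the direction of transcription and from the 250 bases before the start of a RefSeq transcript. That start can lie inside the gene's full span in GENCODE, as it does for *Cd79a*, *Cd37* and *Cd22*, whose windows fall within that span. Of the 24 genes in the marker and identity lists, 16 had an entry. The capitals mark AGGAAGT, an ETS-type motif, on either strand, or an EBF1-type palindrome, which was searched by its consensus.
*Cd79a* (chr7:24897431-24897460, + strand): cacggctgaacAGGAAGTgaggcggagttt
*Cd37* (chr7:45238846-45238875, - strand): acccccccggaACTTCCTctttctctgccg
*Cd72* (chr4:43454657-43454686, - strand): gccaaagacctACTTCCTcttttatgactt
*Cd22* (chr7:30879058-30879087, - strand): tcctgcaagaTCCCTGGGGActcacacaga
The ETS-type motif was present for 4 of the 16 genes, the fourth being *Fcrl1*, and in 7.69% of all 32851 promoter entries. The 16 genes had 19 entries, so a count of genes and a percentage of entries are unlike measures. The EBF1-type motif was found for *Cd22* alone, and in 0.779% of all entries. The octamer ATGCAAAT, which was in 1.60% of all entries, was in no window of these genes. A match describes the letters only.

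The gate held cells that looked like B cells by genes it had not used. *Ighd* (chromosome 12, bases 113406604 to 113416324 on GRCm38), which encodes the heavy chain of IgD, stood at 598 CPM (UMIs of the gene per 1000000 UMIs of the B cells) in ApcMin and at 611 CPM in VApcMinL. *Fcmr* (chromosome 1, bases 130865669 to 130880791), the receptor for the constant part of IgM, stood at 443 and 403 CPM. *Pax5* stood at 313 and 294 CPM. Fibroblasts of the same libraries were taken as barcodes with *Pdgfra*, without *Cd79a* or *Cd3e* and with under 20 *Jchain* UMIs. They were below 1 CPM for all 3 genes, a level that leaving out barcodes with *Cd79a* can lower. *Cd79a* (chromosome 7, bases 24897381 to 24902197), which the gate required, was at 1608.5 and 1599 CPM, and *Ms4a1* (chromosome 19, bases 11249675 to 11266241), which encodes CD20, at 777 and 608 CPM. *Ighd*, which the gate did not use, thus marked most members of both libraries.

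**Figure D1:**
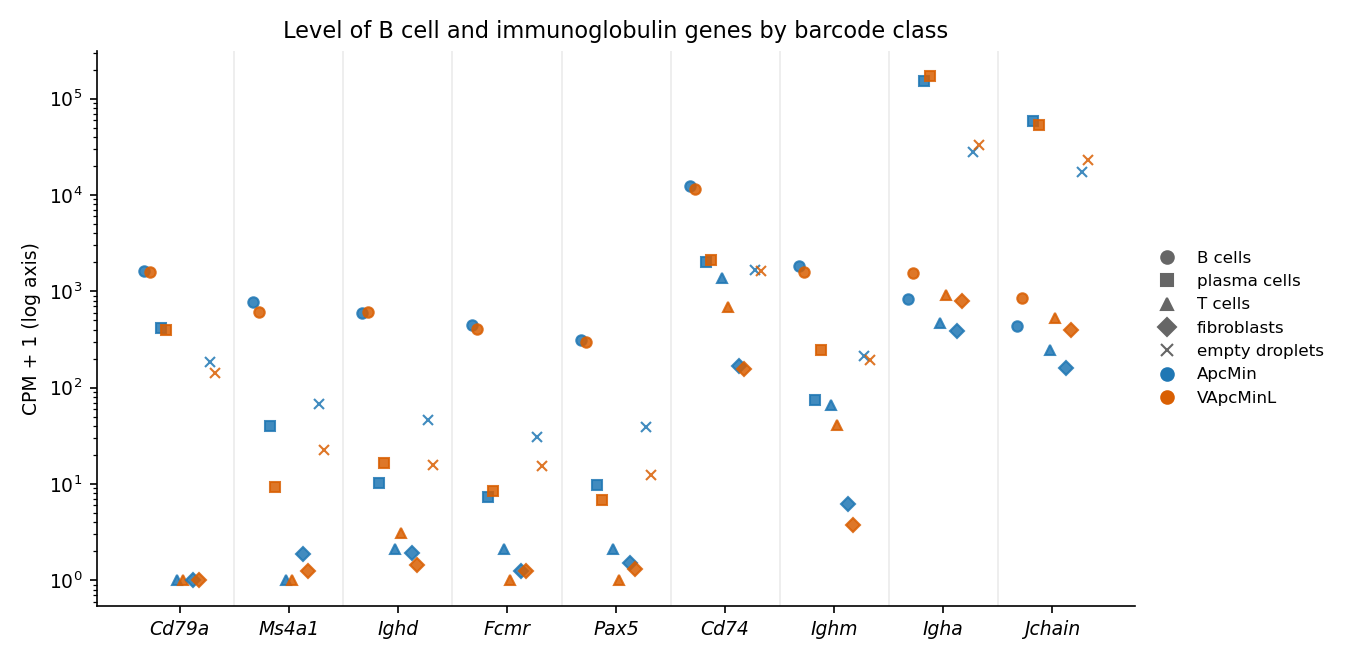
Level of 9 genes in B cells, plasma cells, T cells, fibroblasts and empty droplets of each library, as CPM + 1 on a log axis (x, gene; colour, library; symbol, barcode class; 1 value a library, no error bar). *Ighd* lay near 600 CPM in B cells of both libraries and under 1 CPM in fibroblasts, whereas *Igha* and *Jchain* lay higher in empty droplets than in B cells. T cells and fibroblasts were taken without *Cd79a*, which fixes their *Cd79a* values.

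At the edge of the gate, 104 ApcMin and 69 VApcMinL members had exactly 1 *Ms4a1* UMI. Just outside, 130 ApcMin and 103 VApcMinL barcodes met every other term but had no *Ms4a1* UMI, and their *Cd79a* level was 556 and 529 CPM and their *Ighd* level 199 and 149 CPM. Few barcodes lay near the depth limit: 14 and 5 members were less than 500 UMIs above it, and 16 and 3 barcodes that met the other terms were up to 500 UMIs below it. By the *Jchain* limit, 5 ApcMin and 21 VApcMinL members had 10 to 19 *Jchain* UMIs, and 3 and 2 barcodes that met the other terms had 20 to 29. The libraries shared 21 filtered barcode sequences, 0 of which were B cells in both.

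The libraries held 93203061 UMIs in ApcMin and 101609269 in VApcMinL. B cells had a median of 4804 UMIs and 1627 detected genes in ApcMin, and 4559 UMIs and 1593 genes in VApcMinL. Summed over the members this gave 3438675 and 1916695 UMIs. Their depth ranged up to 41876 UMIs in ApcMin, and up to 125958 in 1 VApcMinL barcode, which held 6.57% of the UMIs of its group. That barcode had 40 *Cd79a* and 14 *Ms4a1* UMIs and 7739 detected genes. Markers of other cell types were carried by 33 ApcMin and 26 VApcMinL members (over 5% hemoglobin UMIs, or at least 10 UMIs of the myeloid, fibroblast or epithelial list, or 5 of the endothelial list). *Ptprc*, which encodes CD45, had a UMI in 95.2% of ApcMin and 94.7% of VApcMinL B cells, although the sort was made against the protein.

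B cells were a smaller fraction of the VApcMinL library. They were 8.65% of the filtered barcodes in ApcMin (609 of 7038, exact 95% interval 8.01 to 9.33%) and 4.30% in VApcMinL (318 of 7399, 3.85 to 4.79%), a ratio of 0.497 (0.432 to 0.570). Plasma cells, taken as barcodes with at least 20 *Jchain* UMIs, stood the other way, at 8.87% and 12.7%. That gate set no limit on *Pdgfra*, *Epcam* or *Cd3e*. Its barcodes held 4331 and 5204 CPM of the fibroblast list, against 268 and 619 CPM in B cells, so it can include mixed barcodes. T cells, taken as barcodes with *Cd3e*, without *Cd79a* or *Ms4a1* and with under 20 *Jchain* UMIs, were 1.31% and 0.703%. Among B, plasma and T cells together the ratio of B cell shares was 0.529 (0.461 to 0.607). These are shares of cells sorted against CD45, and the sort can set them; its part was not tested. With *Jchain* limited to under 5 UMIs the ratio was 0.267, and *Jchain* from free RNA differed between the libraries, as given below. Free *Jchain* can also move the plasma cell shares and the ratio of 0.529, which was not tested.

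Between the libraries the B cells differed little in most genes. Of 5447 genes with at least 100 UMIs in the B cells of both libraries together, 87 (1.6%) were at least 2-fold higher in VApcMinL and 41 (0.753%) at least 2-fold lower, and the median log2 ratio over all of them was 0.02. The count of higher genes rested in part on few barcodes: it was 30 when members over 15000 UMIs were left out (16 in ApcMin and 9 in VApcMinL), and 40 without members that carried markers of other cell types. The corresponding counts of lower genes were 24 and 32.

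The genes of B cell identity and of antigen receptor signalling are described here by their values. Of the 20 identity genes, 19 had enough UMIs. None was past 2-fold either way, a count that does not set a list of this size apart from all genes, of which 2.35% were, and their median log2 ratio was -0.09, with 17 of 19 below 0. *Ebf1*, which specifies the lineage, stood at 1773 CPM in ApcMin and 1657 CPM in VApcMinL, a log2 ratio of -0.10 (-0.16 to -0.04). *Cd79b* stood at 828 and 795 CPM, a log2 ratio of -0.06 (-0.15 to 0.03). The farthest from 0 in the list were *Spib*, an ETS factor of B cells, at 115 and 80.3 CPM (-0.52, -0.80 to -0.25), and *Fcrl1*, an Fc receptor-like surface protein, at 71.5 and 98.1 CPM (0.46, 0.17 to 0.74). *Bank1*, an adaptor of receptor signalling, stood at 471 and 343 CPM (-0.46, -0.59 to -0.33).

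All 19 genes of the signalling list had enough UMIs and none was past 2-fold, against 2.35% of all genes, with a median log2 ratio of -0.13. The kinase gene *Syk* stood at 306 and 269 CPM (-0.19, -0.34 to -0.03) and *Btk* at 137 and 138 CPM (0.01, -0.21 to 0.23). Of the inhibitory co-receptors, *Cd22* stood at 155 and 147 CPM (-0.08, -0.29 to 0.13) and *Fcgr2b*, the inhibitory IgG receptor, at 90.2 and 70.4 CPM (-0.36, -0.66 to -0.06). All 6 measured genes of that list lay below 0, against 2579 of the 5447 genes tested, and none was past 2-fold. Leaving out members over 15000 UMIs put the medians of the identity, signalling and inhibitory lists at 0.02, -0.04 and 0.03, so the direction of these small medians was not stable.

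MHC class II was the largest B cell programme measured. Its 11 genes together took 24002 CPM in ApcMin and 22863 CPM in VApcMinL, of which *Cd74*, the invariant chain, took 12279 and 11597 CPM. *H2-Aa* stood at 4032 and 3885 CPM and *H2-Ob*, a subunit of the H2-O molecule that restrains peptide loading in B cells, at 333 and 303 CPM. None of the 11 genes was past 2-fold, against 2.35% of all genes, which does not set so short a list apart. *Ciita*, the master activator of the class II genes, was the farthest from 0, at 193 and 144 CPM (log2 ratio -0.42, -0.63 to -0.22). After each cell was thinned to 2000 UMIs, the median cell held 50 class II UMIs in ApcMin and 55 in VApcMinL, against 3 in the plasma cells and 0 in the fibroblasts of both libraries.

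**Figure D2:**
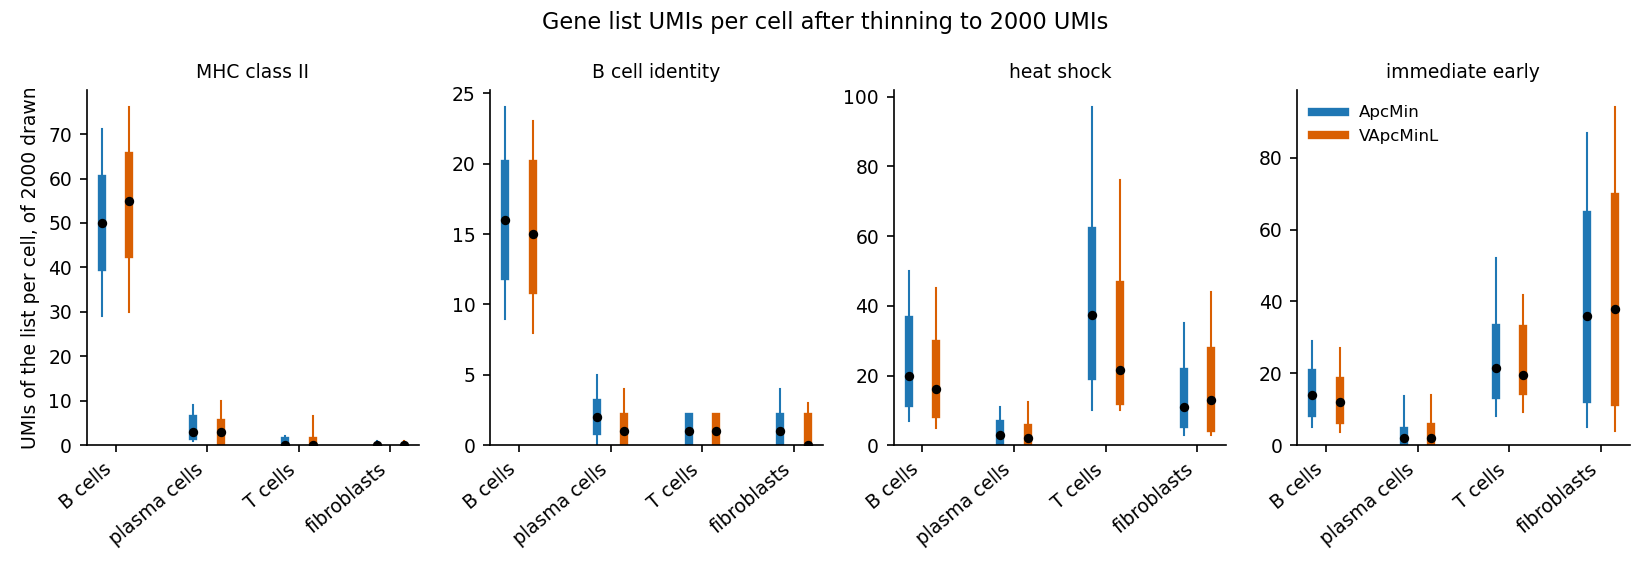
UMIs of 4 gene lists per cell after each cell was thinned to 2000 UMIs (y), by barcode class (x) and library (colour). Points are medians over cells, thick bars run from the 25th to the 75th percentile and thin bars from the 10th to the 90th; the median B cell held 50 (ApcMin) and 55 (VApcMinL) class II UMIs against 3 in plasma cells.

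Most genes of follicular, recirculating B cells lay lower in VApcMinL, and none was past 2-fold, against 2.35% of all genes. All 11 genes of the list had enough UMIs, and 10 of 11 lay below 0, against 2579 of the 5447 genes tested and 17 of 19 in both the identity and the signalling list, with a median log2 ratio of -0.28 (-0.20 without members over 15000 UMIs). *Klf2* (chromosome 8, bases 72319033 to 72321656), a transcription factor that keeps lymphocytes recirculating, stood at 833 CPM in ApcMin and 463 CPM in VApcMinL, a log2 ratio of -0.85 (-0.96 to -0.74), and had a UMI in 70.0% and 56.0% of B cells. *S1pr1*, the sphingosine 1-phosphate receptor by which lymphocytes leave tissues, stood at 403 and 299.5 CPM (-0.43, -0.57 to -0.29). *Gpr183*, the oxysterol receptor that positions B cells in follicles, stood at 403 and 275 CPM (-0.55, -0.70 to -0.41).

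The same held for the chemokine receptors *Cxcr5* and *Ccr7*. *Cxcr5* stood at 121 and 89.7 CPM (-0.43, -0.70 to -0.17) and *Ccr7* at 629 and 527.5 CPM (-0.25, -0.36 to -0.14). *Fcer2a*, which encodes CD23, stood at 302 and 230 CPM (-0.40, -0.56 to -0.24), and *Ighd* was the member above 0 (0.03, -0.07 to 0.13). *Klf2* was also expressed by fibroblasts, at 450 and 348 CPM, and the other receptors of this paragraph and *Gpr183* and *S1pr1* were below 7 CPM there. Gut-homing receptors of plasma cells were nearly absent: *Ccr9* had 4 and 1 UMIs in all B cells, and *Ccr10* had 0 in both.

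**Figure D3:**
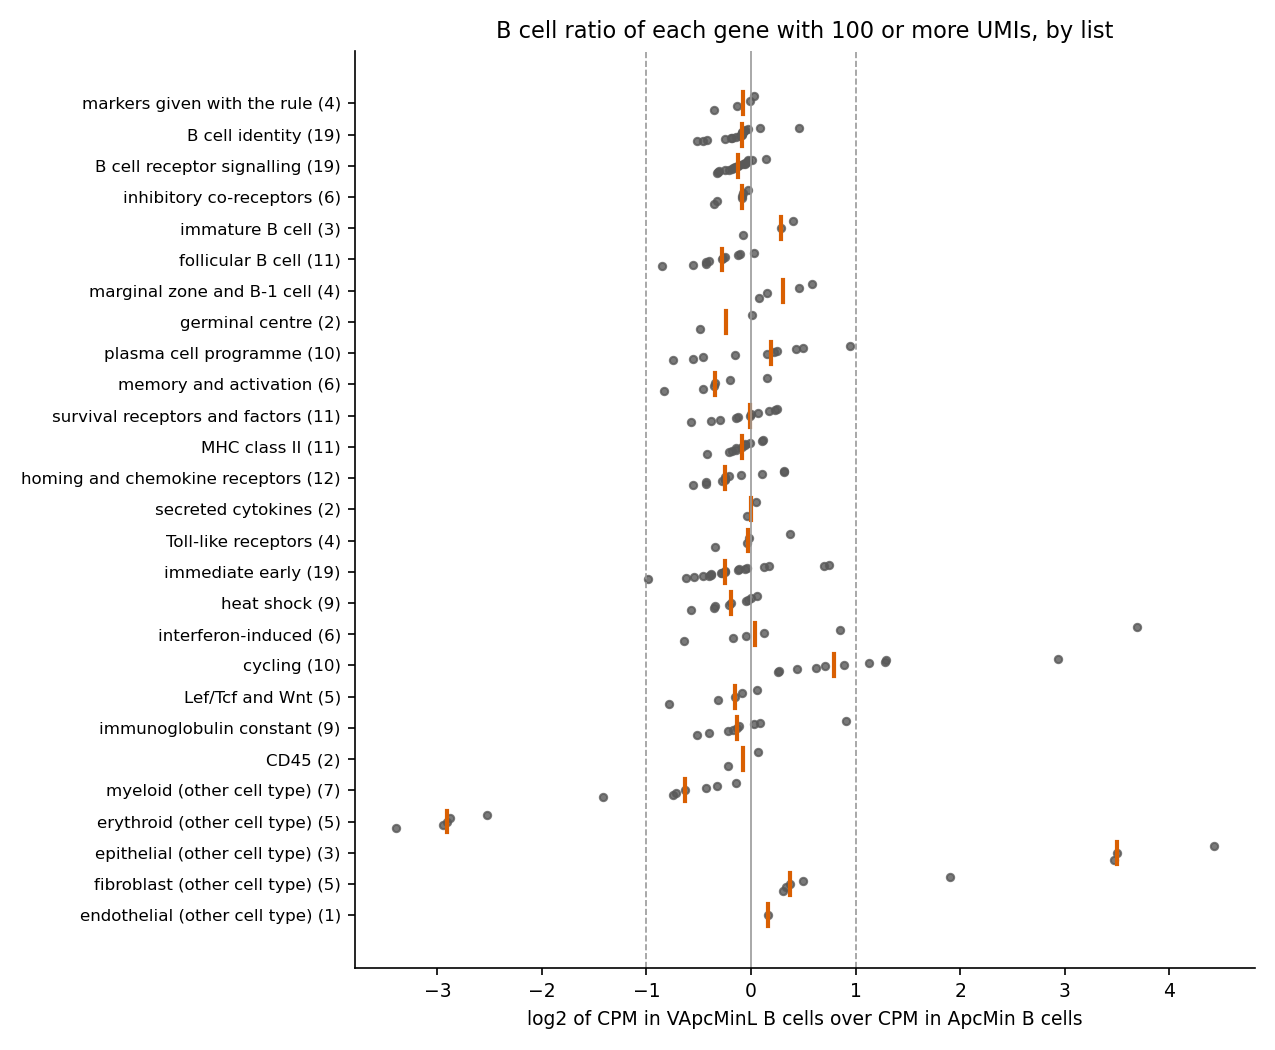
Log2 ratio of CPM in VApcMinL B cells over ApcMin B cells (x) for each gene with at least 100 UMIs, by list (y, number of genes in brackets); orange bars are list medians and dashed lines mark 2-fold. The B cell identity, signalling, follicular and MHC class II genes lie within 2-fold, while the erythroid genes lie below it and the epithelial genes above it.

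Activation and stress genes were present in the B cells of both libraries. *Cd69*, an early activation antigen that holds lymphocytes in tissue, stood at 394 and 286 CPM (log2 ratio -0.46, -0.61 to -0.32). *Cd83* stood at 601 and 470 CPM (-0.35, -0.47 to -0.24), and *Cd86*, a co-stimulatory ligand of T cells, at 140 and 122 CPM (-0.20, -0.43 to 0.03). Of 19 immediate early genes none was past 2-fold, against 2.35% of all genes. The median log2 ratio was -0.25, and 15 of 19 lay below 0, against 2579 of the 5447 genes tested. *Egr2* was the farthest, at 34.0 and 17.2 CPM (-0.98, -1.59 to -0.41), and *Myc*, a growth regulator, stood at 192 and 159 CPM (-0.28, -0.48 to -0.08).

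Of 9 heat shock genes none was past 2-fold, against 2.35% of all genes, and 7 lay below 0, against 2579 of 5447. *Hspa1b*, an inducible chaperone, stood at 2242 and 1510 CPM (-0.57, -0.63 to -0.51) and had a UMI in 74.7% and 59.1% of B cells. At 2000 UMIs a cell, the median B cell held 20 heat shock UMIs in ApcMin and 16 in VApcMinL, the median T cell 37.5 and 21.5, and the median fibroblast 11 and 13. Of the same 2000 UMIs, immediate early genes took 14 and 12 in the median B cell and 36 and 38 in the median fibroblast. The part that tissue dissociation had in these levels was not tested.

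Most B cells carried RNA of both IgM and IgD. *Ighm*, the heavy chain of IgM, stood at 1837 CPM in ApcMin and 1576 CPM in VApcMinL (log2 ratio -0.22, -0.28 to -0.16), and had a UMI in 96.9% and 96.5% of B cells. An *Igha* UMI was found in as many, 97.2% and 99.1%, so the presence of a UMI does not by itself separate unswitched from switched cells. *Ighm* stood at 5.17 and 2.72 CPM in fibroblasts, where *Igha* stood at 383 and 790 CPM. An *Ighd* UMI was found in 87.8% of ApcMin B cells (535 of 609) and in 89.9% of VApcMinL B cells (286 of 318). After thinning each cell to 2000 UMIs the shares were 69.1% (65.3 to 72.8%) and 72.0% (66.7 to 76.9%), with overlapping intervals, against 0.309% and 0.0827% of fibroblasts. Both *Ighm* and *Ighd* were found together in 87.7% and 88.7% of B cells. Neither was found in 18 ApcMin cells, 2.96% (1.76 to 4.63%), and 7 VApcMinL cells, 2.20% (0.890 to 4.48%).

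A count by the most abundant heavy chain gene of each cell gave another picture, and it moved with free RNA. By that count, 19.2% of ApcMin B cells (16.2 to 22.6%) and 46.9% of VApcMinL B cells (41.3 to 52.5%) were class-switched, nearly all of them to *Igha*. *Igha* stood at 829 and 1555 CPM in B cells, but at 27773 and 33225 CPM in empty droplets (barcodes ranked 45000 to 90000 by UMIs), and at 383 and 790 CPM in fibroblasts. *Jchain*, which was limited to under 20 UMIs in B cells and in fibroblasts, stood at 440 and 847 CPM in B cells and at 160 and 400 CPM in fibroblasts. The median B cell held 4 *Igha* and 2 *Jchain* UMIs in ApcMin and 8 and 5 in VApcMinL. *Igha* and *Jchain* thus both stood higher in VApcMinL in B cells, in fibroblasts and in empty droplets.

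Over all B cells there were 1.89 *Igha* UMIs per *Jchain* UMI in ApcMin and 1.84 in VApcMinL, against 1.60 and 1.44 in the empty droplets. When each cell's *Jchain* count was used to take off free RNA of the composition of the empty droplets, the switched shares were 6.29% (4.49 to 8.53%) and 12.3% (8.87 to 16.4%). By their levels above, fibroblasts held more *Igha* per *Jchain* UMI than B cells did in each library. Free *Igha* can thus remain after this step, and these shares cannot be read as the switched fraction of the cells. Cells with at least 10 *Igha* UMIs and over 3 times the count that their *Jchain* predicted numbered 12 of 609 and 26 of 318. *Ighg* transcripts were the most abundant in 8 and 3 cells, and *Ighe* in 0 of 609 and 0 of 318 cells, with exact upper limits of 0.604% and 1.15%.

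**Figure D4:**
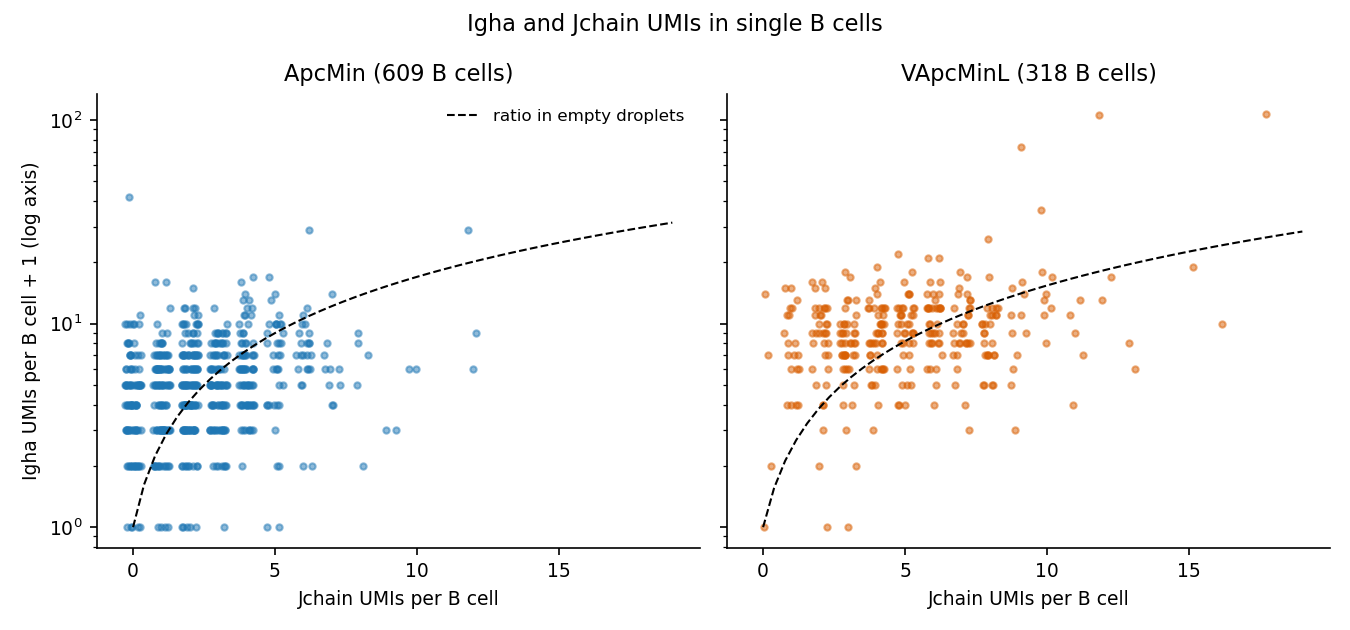
*Igha* UMIs + 1 on a log axis (y) against *Jchain* UMIs (x, spread sideways for display) in each B cell; the dashed line is the ratio measured in empty droplets. Medians were 4 *Igha* UMIs in ApcMin and 8 in VApcMinL, and 12 and 26 cells with at least 10 *Igha* UMIs lay over 3 times above the line.

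Kappa was the main light chain, and lambda RNA was found in most cells as well. *Igkc* had a median of 32 UMIs per B cell in ApcMin and 36 in VApcMinL. Lambda exceeded kappa in 22 of 609 cells (3.61%, 2.28 to 5.42%) and in 3 of 318 (0.943%, 0.195 to 2.73%). *Igkc* was also abundant in empty droplets, at 87768 and 98551 CPM, and after free RNA was taken off as above, lambda exceeded kappa in 16.4% (13.6 to 19.6%) and 20.0% (15.7 to 24.9%) of cells with light chain UMIs left. Neither pair of shares can thus be read as a kappa to lambda ratio of the cells.

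*Iglc2* or *Iglc3*, near-identical lambda constant genes whose reads may be split between them, had a UMI in 89.6% of ApcMin and 88.2% of VApcMinL B cells in which *Igkc* exceeded lambda. At 2000 UMIs a cell the share over all B cells was 71.6% and 73.6%, against 2.31% and 4.36% of fibroblasts. Their summed level in B cells, 1054 and 886 CPM, was near that of the empty droplets, 971 and 1143 CPM. *Iglc1*, in contrast, stood at 398 and 278 CPM in B cells and at 5535 and 2343 CPM in the empty droplets.

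Variable gene RNA was sparse in B cells: an *Ighv* UMI was found in 32.8% of ApcMin and 39.6% of VApcMinL B cells. In plasma cells the shares were 96.6% and 94.8%. The kit reads the 3' end, and its part in these shares was not tested. One gene held a large part of them. *Ighv1-81* had 104 UMIs in 80 ApcMin cells and 88 UMIs in 60 VApcMinL cells, which was 38.4% and 48.1% of all *Ighv* UMIs of B cells. In plasma cells it held 0.623% and 1.40% of *Ighv* UMIs, and in empty droplets 1.57% and 3.03%. The next *Ighv* genes held 3.69% in ApcMin and 3.28% in VApcMinL. *Ighv1-81* lies outside the naming rule and was singled out after its values were seen.

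Cells without an *Ighd* UMI had lower levels of *Fcer2a* and *Fcmr* than the rest and higher levels of *Mki67*, *Plac8* and *Apoe*. Members with markers of other cell types were left out of this count, which left 508 ApcMin cells with and 68 without an *Ighd* UMI, at median depths of 4705 and 4333 UMIs, and 265 and 27 VApcMinL cells, at 4489 and 4817 UMIs. *Fcer2a* stood at 345 CPM with and 180.5 CPM without *Ighd* in ApcMin, and at 274 and 102 CPM in VApcMinL. *Fcmr* was lower without *Ighd* as well, at 512 and 294 CPM in ApcMin and 466 and 228 CPM in VApcMinL.

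The opposite order held for other genes. *Mki67*, a proliferation marker, stood at 13.7 CPM with and 286 CPM without *Ighd* in ApcMin, and at 32.0 and 168 CPM in VApcMinL. Few cells carried it: a *Mki67* UMI was found in 1.38% of ApcMin cells with and 11.8% of those without *Ighd*, and in 1.13% and 14.8% of VApcMinL cells, so most cells without *Ighd* had none. *Plac8* stood at 604 and 884 CPM in ApcMin and at 618 and 1494 CPM in VApcMinL, and *Apoe*, a lipid carrier, at 601 and 1173 CPM and at 534 and 1212 CPM. These levels are summed over cells. The share of cells with a *Plac8* UMI was 67.72% with and 67.65% without *Ighd* in ApcMin, and 73.2% and 70.4% in VApcMinL. For *Apoe* the shares were 58.5% and 69.1% in ApcMin, and 66.0% and 66.7% in VApcMinL. *Apoe* lies outside the naming rule and was chosen after its values were seen. *Jchain* was nearly the same in both kinds of cell, at 469 and 498 CPM in ApcMin and at 910 and 900 CPM in VApcMinL. The cells with and without *Ighd* come from the same libraries, so no test was made, and the 27 VApcMinL cells hold few UMIs of the rarer genes.

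**Figure D5:**
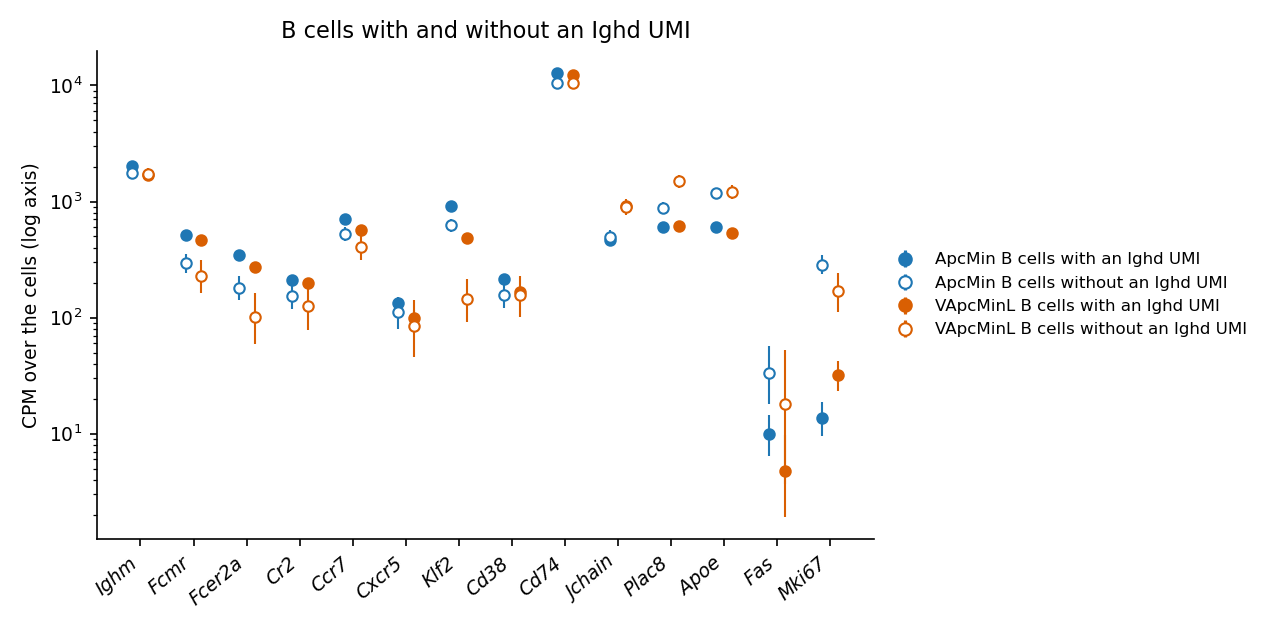
CPM summed over B cells with (filled) and without (open) an *Ighd* UMI in each library (colour), on a log axis, for 14 genes (x); bars are exact 95% counting intervals. *Fcer2a* and *Fcmr* lay lower and *Plac8*, *Apoe* and *Mki67* higher without *Ighd* in both libraries.

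Dividing cells were rare. At least 5 UMIs of 7 mitotic genes were found in 6 of 609 ApcMin B cells (0.985%, 0.362 to 2.13%) and in 8 of 318 VApcMinL B cells (2.52%, 1.09 to 4.90%). Of these, 6 ApcMin and 5 VApcMinL cells (1.57% of 318, 0.513 to 3.63%) carried no markers of other cell types. *Bcl6*, the germinal centre repressor, stood at 45.7 and 45.9 CPM. Of 10 cycling genes with enough UMIs, 4 (*Ube2c*, *Top2a*, *Mcm3* and *Mcm5*) were past 2-fold higher in VApcMinL, against 1.6% of all genes tested. The list median was 0.80. The deepest VApcMinL barcode held 926 of the 2329 cycling UMIs of its group, 39.8%. Without that barcode 0 of the 10 genes were past 2-fold and the list median was 0.13. Without members over 15000 UMIs the list median was -0.06, and with each cell thinned to 2000 UMIs it was 0.04.

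Genes of early and B-1 lineages ranged from absent to widespread. *Igll1*, *Vpreb2* and *Dntt*, genes of B cell precursors, had 0 UMIs in both libraries, and *Rag1*, which cuts DNA for receptor recombination, had 13 and 9 UMIs in all. *Vpreb3* was widespread instead, with a UMI in 67.3% and 71.4% of B cells and levels of 331 and 403 CPM (log2 ratio 0.28, 0.15 to 0.42). *Cd5*, a marker of B-1a cells, had a UMI in 0 of 609 and 4 of 318 cells. *Cd9* stood at 34.9 and 48.0 CPM and *Zbtb32* had 2 and 6 UMIs. The *Cd9* level rested in part on members with markers of other cell types. Without them it was 14.8 CPM in ApcMin cells with an *Ighd* UMI and 5.16 CPM in those without. In VApcMinL it was 12.9 and 24.0 CPM, the latter from 4 UMIs. The marginal zone and B-1 list as a whole summed to 805.5 CPM in ApcMin and 902 CPM in VApcMinL B cells. In the empty droplets it summed to 581 and 2021 CPM. Of the receptors for survival signals, *Tnfrsf13c*, which encodes the BAFF receptor, stood at 224.5 and 206 CPM (-0.12, -0.30 to 0.05) and *Cd40* at 42.2 and 47.5 CPM (0.17, -0.22 to 0.56). Of the secreted factors, *Ltb* (lymphotoxin beta) stood at 257 and 250 CPM (-0.04, -0.21 to 0.12), and *Il10* had 5 and 0 UMIs.

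The remaining B cell lists had no gene past 2-fold either, which at 2.35% of all genes does not set such short lists apart. The germinal centre list had 2 of 11 genes with enough UMIs and a median log2 ratio of -0.24, which was -1.13 without members that carried markers of other cell types. The marginal zone and B-1 list had 4 of 13 genes with enough UMIs, all above 0, with a median log2 ratio of 0.30, which was 0.09 without members over 15000 UMIs. The plasma cell programme had 10 genes and a median of 0.19, with *Jchain* the highest at 0.95. The memory and activation list had 6 genes and a median of -0.35, and the list of homing and chemokine receptors 12 genes and a median of -0.25. Survival receptors (11 genes), Toll-like receptors (4 genes) and secreted cytokines (2 genes) had medians of -0.01, -0.03 and 0.00. The immunoglobulin constant genes (9 genes) had a median of -0.13, which was 0.16 without members over 15000 UMIs.

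The gene deleted in the epithelium was hardly expressed in B cells. *Lef1* had 13 UMIs in 11 ApcMin B cells and 18 UMIs in 12 VApcMinL B cells, 3.78 and 9.39 CPM. Its relative *Tcf7* had 3 and 7 UMIs. *Tle4*, a co-repressor that binds TCF and LEF factors, stood at 143 and 83.0 CPM (log2 ratio -0.79, -1.06 to -0.53), and *Tle3*, of the same family, had a log2 ratio of -0.16 (-0.47 to 0.15). None of the 5 measured genes of the Wnt list was past 2-fold, against 2.35% of all genes. *Apc* stood at 58.2 and 54.8 CPM (-0.09, -0.44 to 0.26).

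Genes of red cells and enterocytes differed widely between the libraries. All 5 erythroid genes were over 2-fold lower in VApcMinL B cells, against 0.753% of all genes. Their summed levels were 36159 and 4653 CPM in B cells and 70809 and 20657 CPM in the empty droplets. All 3 epithelial genes with enough UMIs (*Fabp1*, *Fabp2* and *Lgals4*) were over 2-fold higher, against 1.6% of all genes. *Fabp1*, an enterocyte fatty acid binding protein, had 22 UMIs in 2.79% of ApcMin B cells and 264 in 53.8% of VApcMinL B cells, and stood at 149 and 3745 CPM in the empty droplets and at 22.9 and 576 CPM in fibroblasts. The epithelial list summed to 32.9 and 447 CPM in B cells and to 803 and 10280 CPM in the empty droplets. The erythroid and epithelial sums thus differed in the same direction in B cells and in empty droplets, and their part in other results was not tested.

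Markers of T cells summed to 28.2 and 14.1 CPM in B cells and those of NK and innate lymphoid cells to 1.75 and 1.57 CPM, and no gene of either list had enough UMIs. The myeloid list summed to 937 and 607 CPM in B cells and, in the other order, to 876 and 1348 CPM in empty droplets, with *Lyz2* at 255 and 95.5 CPM and 94.6% and 93.4% of its UMIs in 10 cells. The fibroblast list summed to 268 and 619 CPM, against 34663 and 33058 CPM in fibroblasts, and the endothelial list to 93.1 and 156 CPM. *Dcn*, a collagen-binding proteoglycan, was past 2-fold at 107 and 402 CPM, with 74.0% of the VApcMinL UMIs in 10 cells.

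The genes of largest ratio by the naming rule belonged to few barcodes. *Slpi*, a secreted protease inhibitor, had 25 UMIs in ApcMin and 743 in VApcMinL, 474 of them in 1 cell. Next came 8 genes of DNA synthesis and the cell cycle, *Ube2c*, *Uhrf1*, *Rrm2*, *Pclaf*, *Dut*, *Tipin*, *Hells* and *Prim1*, and *Srm*, which makes spermidine. In VApcMinL the 10 richest cells held 70.3% (*Srm*) to 100% (*Ube2c* and *Rrm2*) of their UMIs. *Lyz1*, *Slc7a11* and *Ccl24*, the first 3 in the other direction, had all their UMIs in 10 cells or fewer of each library.

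Other genes lower in VApcMinL were spread over more cells. *Amd2*, a copy of the gene for adenosylmethionine decarboxylase whose reads may be shared with other copies, stood at 55.5 and 18.3 CPM (-1.60, -2.17 to -1.08), and at 41.6 and 25.1 CPM in fibroblasts. *Il4i1*, an amino acid oxidase of B and myeloid cells, stood at 55.8 and 22.4 CPM (-1.32, -1.83 to -0.83), and at -0.47 on the log2 scale after thinning. The rule also named *B930036N10Rik*, *2900060B14Rik*, *Necap1* and *Cep135*, with log2 ratios from -1.49 to -1.16.

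Of the 87 higher genes, 18 were also past 2-fold with cells thinned, without members bearing other markers and without members over 15000 UMIs, and of the 41 lower genes 15 were. Among the 18 were the DNA synthesis genes *Pclaf* and *Rrm2*, with log2 ratios of 2.23 and 1.41 without members over 15000 UMIs, with 99.6% and 100% of their VApcMinL UMIs in 10 cells. Also among the 18 were the epithelial genes *Fabp1*, *Fabp2* and *Lgals4*, and the interferon-induced GTPase gene *Iigp1*, which had 13 UMIs in ApcMin and 94 in VApcMinL, 97.9% of the latter in 10 cells. The rest of the 18 were *Apoa1*, *B3gnt7*, *Fabp4*, *Fabp5*, *Gas6*, *Gm47283*, *Mgst1*, *Pigr*, *Rbp2*, *Reg3b*, *Smim20* and *Spink1*. The paper lists *Apoa1* and *Rbp2*, like *Fabp1*, as enterocyte markers. Among the 15 were 4 hemoglobin genes and *Amd2*. Also among them was *Ccl4*, a chemokine secreted by activated lymphocytes and myeloid cells, at 96.3 and 6.26 CPM (331 and 12 UMIs), a gene outside the naming rule that was chosen after its values were seen. How the *Ccl4* UMIs were spread over cells is not given here, so few barcodes may hold them. *Ccl3*, *Ccr1* and *Tnfaip2* were among the 15 as well. The interferon list had 6 genes with enough UMIs, of which *Iigp1* alone was past 2-fold, against 2.35% of all genes.

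The genes highest in B cells over all other filtered barcodes, both libraries pooled, were *Ms4a1*, *Fcmr*, *Ighd*, *Fcer2a*, *Pax5*, *H2-Ob*, *H2-DMb2*, *Ccr7*, *Gm31243* and *Gm8369*. *Ms4a1*, which the gate used, stood 108-fold over the other barcodes, *Fcmr* 87.9-fold and *Gm8369* 59.0-fold. *Gm31243*, a predicted gene on chromosome 3, stood at 217.5 and 185 CPM, and *Gm8369*, on chromosome 19, at 368 and 340 CPM. These ratios describe the gate and were not tested.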

How the data were processed

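The authors deposited unfiltered UMI counts per gene and barcode, made with Cell Ranger on mm10; the submitters' notes name release 2.1.1, and the file headers release 3.1.0. No cell filter or normalization had been applied by the authors to these counts. Each library has 31053 genes and 6794880 barcodes. Here, B cells were gated as described, UMIs were summed over the members of each library, and CPM and their ratio were computed for genes with at least 100 UMIs in both libraries together. Ratios carry exact conditional binomial intervals, levels exact Poisson intervals and shares Clopper-Pearson intervals (95%), which cover counting error only. Empty droplets were barcodes ranked 45000 to 90000. Thinning drew 2000 UMIs per cell without replacement. The 29 gene lists hold 302 genes; 7 lists are of other cell types. Named genes were those of the lists, the 10 highest over other barcodes, and the 10 largest ratios each way. The ratios were ranked among genes whose level, in the library where it was higher, reached 2 times the empty droplet level. Mitochondrial, Y-linked and variable genes and *Xist* were left out of that ranking. Members and lists were chosen with earlier results of these data known. Ratios and intervals were tested on simulated data. Doublets were not removed in the main values; Scrublet (scanpy 1.11.5) was an alternative. Python 3.11.15, numpy 2.4.6, pandas 2.3.3 and scipy 1.17.1 were used; gene positions are those of GENCODE vM21 (GRCm38). Some genes that the rule names are not reported here.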

Additional observations from a re-analysis of the deposited data

How the results depend on the processing

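No replicate could be left out. No paired analysis was possible because there was a single library of either genotype. The ratio of B cell shares, 0.497 in the report, was below 1 under each alternative run: 0.267 with *Jchain* under 5 UMIs, 0.406 without barcodes of over 20% hemoglobin UMIs in the denominator, 0.244 with a depth minimum set by each library's deepest barcodes (4722 UMIs in ApcMin and 6256 in VApcMinL), and 0.449 to 0.529 otherwise. The 87 higher and 41 lower genes became 239 and 88 with at least 50 UMIs, 36 and 23 with at least 200, and 3201 and 2109 with at least 1. There were 51 higher genes without Scrublet doublets and 106 lower genes with cells thinned to 2000 UMIs. Under median-of-ratios scaling there were 84 and 43.

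Some alternatives were chosen after seeing the data: leaving out barcodes with markers of other cell types (40 higher), leaving out those over 15000 UMIs (30 higher, 24 lower), leaving out the deepest VApcMinL barcode alone (64 higher, 38 lower), taking off free RNA, and counting cells with no *Ighm* and no *Ighd* UMI. The share of B cells with an *Ighd* UMI was 87.8% in ApcMin and 89.9% in VApcMinL with all UMIs of a cell. The lambda share was 16.4% and 20.0% with free RNA taken off, and 0 of 148 cells in VApcMinL with *Jchain* under 5, which allows up to 2.46%. The switched share was 6.29% and 12.3% with free RNA taken off, 2.96% and 2.20% as cells with no *Ighm* and no *Ighd* UMI, and 37.2% in VApcMinL with *Jchain* under 5.

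Over 55 named genes, 525 values stayed within the counting interval of the reported ratio, 113 moved outside it and 12 values of genes past 2-fold changed sign. *Slpi* had a log2 ratio of -0.20 without Scrublet doublets and -0.47 without other cell types' markers. *Lyz1* had 0.89 without those markers and 1.99 without barcodes over 15000 UMIs, *Ube2c* -0.23 (-0.90 without the deepest VApcMinL barcode alone) and *Ccl24* 0.0053 without the latter. With cells thinned, *Srm* had -0.17, *Ccl24* 0.30 and *Mcm3* -0.020, and *Mcm3* had -0.029 without barcodes over 15000 UMIs. *Slc7a11* had 4.02 with at least 2 *Cd79a* and 2 *Ms4a1* UMIs. The cause was not tested. Depth limits rare transcripts: at a median of 4804 and 4559 UMIs a cell, a gene without a UMI in a cell may still be expressed there.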
